A study of Mus musculus with 64 samples.

Results

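Cholecystokinin, neurotensin and the other neuropeptide genes described here form a set of 10 genes, chosen by name from the 24421 gene symbols of a mouse midbrain count table: the peptide precursors Cck, Nts, Tac1, Sst, Vip, Grp and Npy, and the receptors Cckar, Cckbr and Ntsr1. All 10 passed the filter on low counts that left 15634 genes for testing. RNA was sequenced from bilateral 1 mm tissue punches over the ventral tegmental area (VTA) of 64 adult male mice of the strain 129S1/Svlm, at zeitgeber time 6 and about 24 h after the last of 14 days of treatment. Mice were labelled Wildtype or Clock delta 19, an allele whose product is a dominant-negative form of the core clock protein CLOCK. Mice received valproate (VPA, used against mania and also an inhibitor of histone deacetylases), ACY957 (which inhibits the class I enzymes among these deacetylases) or the vehicle of one of them. Under the wildtype label there were 8 VPA, 3 VPA vehicle, 8 ACY957 and 5 ACY957 vehicle libraries. Under the mutant label there were 8 VPA, 13 VPA vehicle, 8 ACY957 and 11 ACY957 vehicle libraries. The design text gives 8 mice per group. Mice 1 to 24 carry the wildtype label and mice 25 to 64 the mutant label, so the label and the order of the mouse numbers cannot be told apart.

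Neuropeptides are made as precursors, cleaved in dense-core granules and released from the same neurons that release a fast transmitter or dopamine. Many VTA dopamine neurons co-express cholecystokinin, and Cck has been tied to the mania-like behaviour of the Clock mutant. Neurotensin excites dopamine neurons through the receptor encoded by Ntsr1, while Grp marks a medial group of dopamine neurons, and somatostatin and neuropeptide Y are found mainly in inhibitory neurons.

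The sequences before the start sites of Cck and its receptor Cckbr are shown because both hold the E-box CACGTG, the letters that CLOCK binds with its partner BMAL1, and that of Vip because it was the gene that passed a test of the genotype label. RefSeq promoter sequences on mm10 were matched for 8 of the 10 genes, and Cckar and Grp had no entry. Each line gives the 250 bases before the RefSeq start on the gene's own strand, 5′ to 3′. The Cck stretch is chr9:121495695-121495944 (minus strand), the Cckbr stretch chr7:105425481-105425730 (plus strand) and the Vip stretch chr10:5638968-5639217 (plus strand). Capitals mark CACGTG, and TGACG or its reverse complement CGTCA, the core of the cyclic AMP response element (CRE).
Cck: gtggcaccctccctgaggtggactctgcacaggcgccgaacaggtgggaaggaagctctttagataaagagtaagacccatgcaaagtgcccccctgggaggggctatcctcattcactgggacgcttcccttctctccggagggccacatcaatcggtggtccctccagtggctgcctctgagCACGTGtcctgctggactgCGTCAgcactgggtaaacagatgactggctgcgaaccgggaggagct
Cckbr: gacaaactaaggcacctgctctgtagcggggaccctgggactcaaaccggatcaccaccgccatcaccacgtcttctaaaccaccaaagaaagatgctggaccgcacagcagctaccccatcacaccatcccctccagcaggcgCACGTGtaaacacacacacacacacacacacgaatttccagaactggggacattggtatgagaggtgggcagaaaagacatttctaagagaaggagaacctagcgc
Vip: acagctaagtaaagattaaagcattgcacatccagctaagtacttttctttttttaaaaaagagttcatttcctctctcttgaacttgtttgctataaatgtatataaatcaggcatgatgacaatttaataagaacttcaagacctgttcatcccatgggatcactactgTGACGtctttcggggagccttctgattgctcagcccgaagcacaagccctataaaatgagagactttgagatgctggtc
The E-box lay 66 bases before the Cck start and 106 bases before the Cckbr start. Tac1 held one 61 bases before its RefSeq start, so 3 of the 8 matched genes carried it, while 6.02% of all 32851 promoters of the same length did. The Vip stretch held no CACGTG and had TGACG 79 bases before the start. The CRE core was found in 6 of 8 genes (Cck, Nts, Ntsr1, Vip, Sst and Tac1) and in 17.8% of all promoters, and Sst held the full CRE TGACGTCA, which contains that core, 48 bases before its start (1.55% of all promoters). The RefSeq starts of Nts, Sst and Tac1 lie downstream of the GENCODE starts used for the positions given further on. By the GENCODE gene models the Sst matches, the Tac1 E-box and the Tac1 CRE core nearest its RefSeq start therefore lie inside the gene and not before it. Both strands were searched, also for AAAGGTCA and TTATGTAA, which were in 0 of 8 genes and in 1.34% and 0.819% of all promoters. These are matches of letters and not binding sites.

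Libraries held 20.1 to 37.5 M counts (median 25.8 M), and the dopamine genes Th and Slc6a3 were detected in each. Levels are given in CPM, the counts of a gene per 1000000 counts of its library. Th was under 8 log2 CPM in 4 libraries: VPA mutant-label replicates 2 and 8 (44.2 and 26.3 CPM), VPA wildtype-label replicate 3 (98.0 CPM) and VPA vehicle mutant-label replicate 3 (202 CPM). The serotonin gene Tph2 was above 10 CPM in 2 libraries, ACY957 vehicle wildtype-label replicate 2 (13.2 CPM) and VPA vehicle mutant-label replicate 13 (13.9 CPM), and at most 2.76 CPM in the others. A clock output score, the mean of 8 genes driven by the clock, was at or under 4.33 or at or above 4.91 log2 CPM, and 13 libraries had the level typical of the opposite label: 12 of 40 mutant-label libraries, 6 of them VPA vehicle, and 1 of 24 wildtype-label libraries. The total count of Clock itself does not show which allele a mouse carries, since the mutant allele still gives a transcript, from which an exon is skipped. All 8 genes of this score fell under the mutant label when averaged over the 4 treatments, and each genotype comparison mixes both levels of clock output under that label.

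Cck was the most abundant of the 10 genes per kilobase of exon, together with Sst (positions are those of the GENCODE annotation on mm10). Cck (chromosome 9, 121489824 to 121495694) averaged 47.2 CPM per kb (SD 14.9, n = 64) and Sst, the somatostatin precursor (chromosome 16, 23889573 to 23890958), 47 CPM per kb (SD 26). Cck was above Sst in 40 of 64 libraries, so that order was within the spread between libraries. Tac1, the precursor of substance P and neurokinin A (chromosome 6, 7554879 to 7565834), followed at 22.3 CPM per kb (SD 7.95). Ntsr1 (chromosome 2, 180499976 to 180544980) stood at 16.5 (SD 5.96), Nts (chromosome 10, 102481756 to 102490486) at 13.4 (SD 6.35) and Grp, the precursor of gastrin-releasing peptide (chromosome 18), at 12.8 CPM per kb (SD 5.50). Tac1 was above Ntsr1 in 42 of 64 libraries, Ntsr1 above Nts in 44 and Nts above Grp in 30, so these neighbours were not separated either. Npy (chromosome 6, 49822710 to 49829507) was at 8.77 CPM per kb (SD 2.50).

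The receptors of cholecystokinin were much lower than the peptide and unequal. Cckbr, the receptor that also binds gastrin and predominates in the brain (chromosome 7, 105425731 to 105470898), averaged 4.81 CPM per kb (SD 1.44). Cckar, which binds sulfated cholecystokinin selectively (chromosome 5, 53697776 to 53707705), averaged 0.79 CPM per kb (SD 0.251), the lowest of the 10. Vip, the precursor of vasoactive intestinal peptide (chromosome 10, 5639218 to 5647617), lay between them at 1.82 CPM per kb (SD 1.21). Vip was below Cckbr and above Cckar in 62 of 64 libraries each. Raw counts of Cckar were 21 to 139 per library, and those of Cck 647 to 3471.

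These genes varied more between mice than most genes did. The SD of log2 CPM over 64 libraries ran from 0.40 for Npy to 0.72 for Grp, while the median of all genes tested was 0.20. The highest library exceeded the lowest by 13 times for Vip, 9.19 times for Sst, 8.34 times for Tac1, 8.00 times for Nts and 4.89 times for Cck. Group membership accounted for 7.93% (Tac1) to 23.7% (Vip) of the variance of log2 CPM, around the 16% that was the median of all genes, so most of the spread lay within groups.

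**Figure D1:**
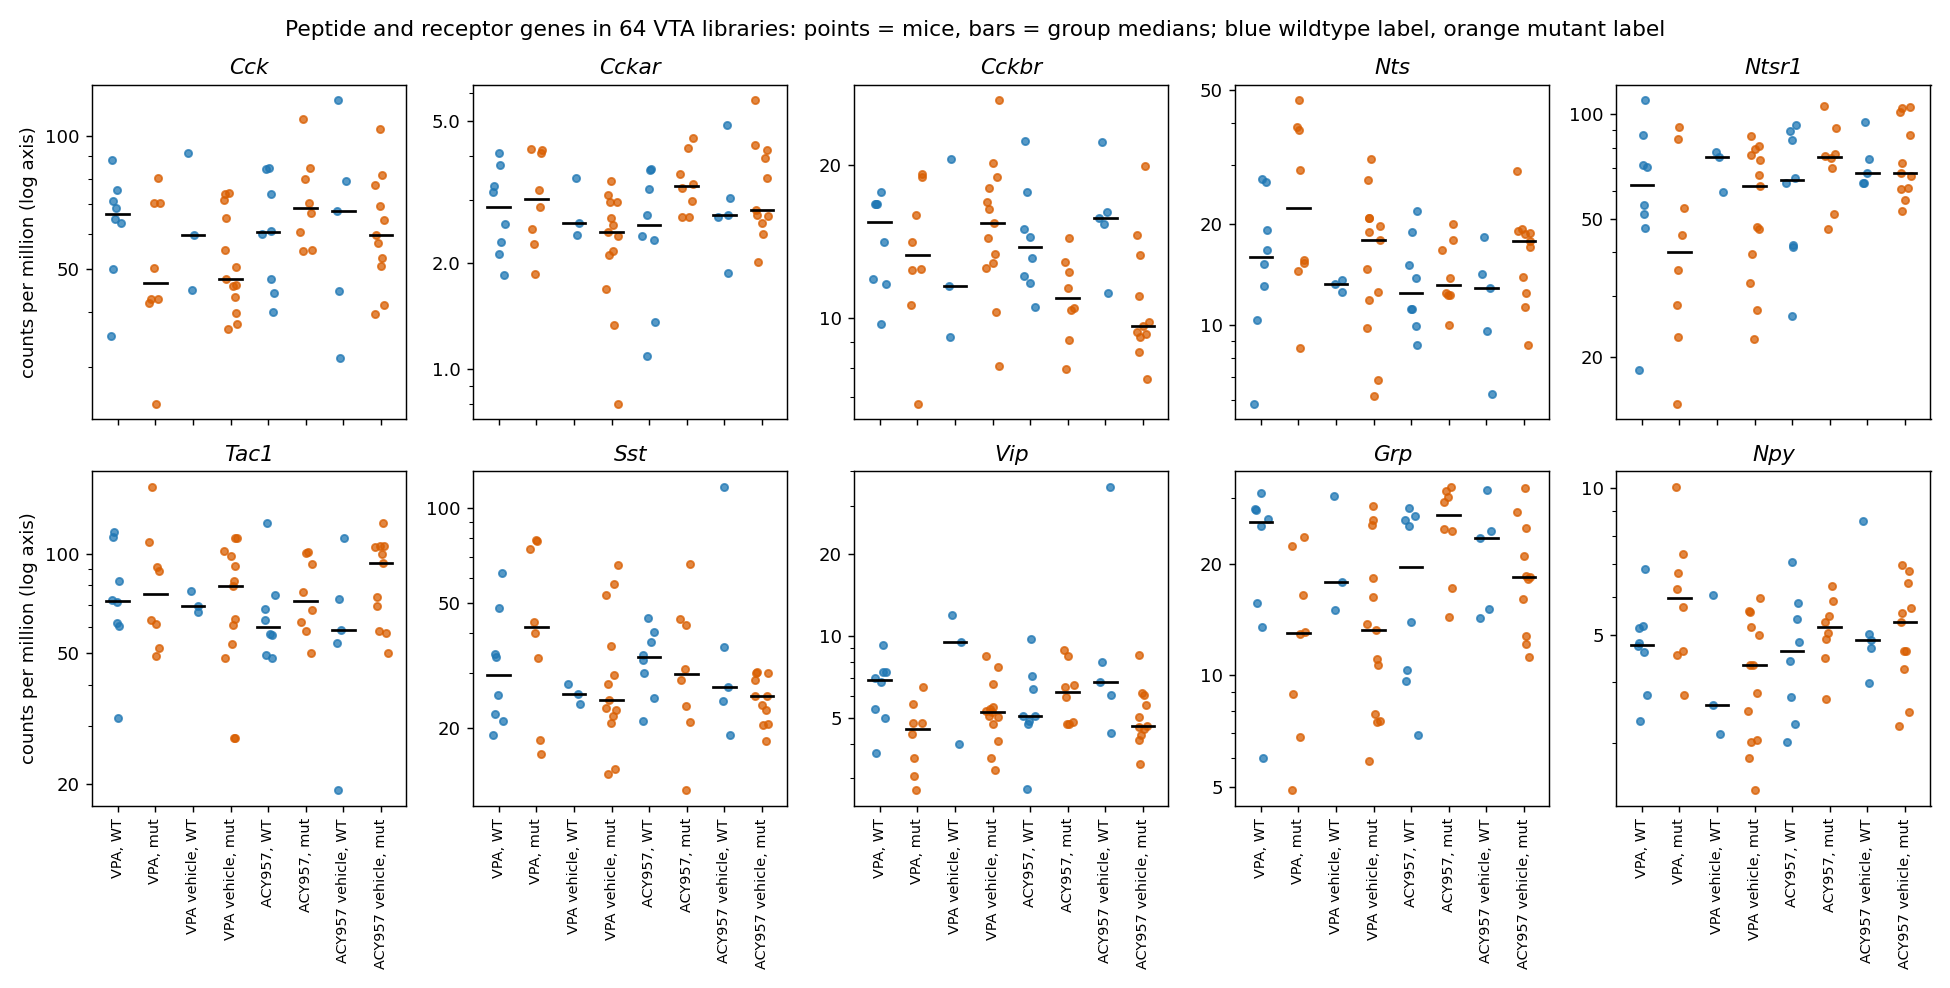
CPM (log axis) of the 10 genes in each mouse (points) by treatment and genotype label, with group medians as bars, blue for the wildtype and orange for the mutant label. Groups overlap for every gene, and the Vip value of 35.2 CPM in 1 ACY957 vehicle library with the wildtype label stands far above the rest.

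Cck did not differ detectably between genotype labels. In VPA mice it was at 35.3, 66.8 and 88.4 CPM (lowest, median and highest of 8) under the wildtype label and 24.7, 46.4 and 80.2 CPM under the mutant label. With VPA vehicle the 3 wildtype-label libraries were at 44.9, 59.8 and 91.4 CPM, and the 13 mutant-label libraries spanned 36.5 to 74.4 CPM with a median of 47.4 CPM. The 2 lowest of these 4 medians were both of the mutant label, and the groups overlapped at each treatment.

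In ACY957 mice the order of the labels was the other way. Cck was at 39.8, 60.6 and 84.6 CPM (lowest, median and highest of 8) under the wildtype label and 55, 68.8 and 109 CPM under the mutant label. In ACY957 vehicle mice the 5 wildtype-label libraries were at 31.4, 44.6, 67.6, 79.0 and 121 CPM, and the 11 mutant-label libraries at 39.5 to 104 CPM with a median of 59.8 CPM. The wildtype-label group thus held both the lowest and the highest value.

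Fitted log2 fold changes of Cck (mutant minus wildtype label, edgeR quasi-likelihood test, Benjamini-Hochberg adjustment over all genes) lay within 2 SE of 0. They were -0.29 (SE 0.22, adjusted p = 0.546) in VPA mice, -0.31 (SE 0.27, adjusted p = 0.927) in VPA vehicle mice, 0.23 (SE 0.22, adjusted p = 1.00) in ACY957 mice and -0.11 (SE 0.23, adjusted p = 0.999) in ACY957 vehicle mice. Averaged over the 4 treatments Cck was lower by 0.12 on the log2 scale (-0.12, SE 0.12, adjusted p = 0.693), a ratio of 0.921 with an interval of 2 SE from 0.782 to 1.08. Without the 13 libraries whose clock output went against their label the value was -0.06 (adjusted p = 0.858). The difference in VPA mice changed sign, to 0.03, when Th was a covariate, and that in VPA vehicle mice to 0.02 without wildtype-label replicate 3. The difference in ACY957 vehicle mice changed sign too, to 0.19, without wildtype-label replicate 2, and to 0.05 without the libraries whose clock output went against their label. With Hcrt and Pmch as a covariate the average over treatments was 0.03.

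Vip was the 1 gene of the 10 that passed a test. It fell by 0.57 on the log2 scale under the mutant label averaged over the 4 treatments (-0.57, SE 0.14, adjusted p = 0.0186), a ratio of 0.672. In this comparison 252 genes were called, 1.61% of those tested, beside the 1 of 10 here, and the median log2 fold change of the 10 genes was -0.06 against 0.00 for all genes. In the same average 5 of 10 microglia markers fell (from -0.30 for P2ry12 to -0.17 for Csf1r and Tmem119). Of the endothelial and mural markers Cldn5 rose (0.34, SE 0.08) and Rgs5 fell (-0.22, SE 0.06). The hypothalamic Pmch rose (1.23, SE 0.33). Its means under the mutant and wildtype labels were 131 and 7.61 CPM in VPA mice and 6.57 and 7.64 CPM in ACY957 mice. They were 7.02 and 4.79 CPM with VPA vehicle and 6.49 and 4.64 CPM with ACY957 vehicle. Negative values, with 0 called, were found for 21 of 22 dopamine neuron markers, and 0 of 9 GABA neuron markers were called. The part of these markers in the Vip result was not tested beyond the covariate fits. Vasoactive intestinal peptide synchronises neurons of the master clock in the hypothalamus, and in the midbrain it marks small groups of neurons near the raphe and the periaqueductal grey.

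In VPA mice Vip was at 3.72, 6.90 and 9.26 CPM (lowest, median and highest of 8) under the wildtype label and 2.71, 4.56 and 6.50 CPM under the mutant label. All 8 mutant-label libraries lay below the wildtype-label median, and 3 lay below the lowest wildtype-label library. In VPA vehicle mice the wildtype-label libraries were at 4.00, 9.47 and 12 CPM, and the mutant-label libraries at 3.21 to 8.40 CPM with a median of 5.26 CPM. All 13 lay below the wildtype-label median, and 2 below its lowest library. In ACY957 mice Vip was at 2.75, 5.09 and 9.70 CPM under the wildtype label and 4.73, 6.22 and 8.89 CPM under the mutant label, so that the mutant-label median was the higher one.

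In ACY957 vehicle mice the wildtype-label libraries were at 4.39, 6.07, 6.79, 8.01 and 35.2 CPM and the mutant-label libraries at 3.38 to 8.51 CPM with a median of 4.65 CPM. Replicate 2, at 35.2 CPM, was the highest of all 64 libraries for Vip, for Cck (121 CPM), for Sst (117 CPM) and for the cortical excitatory marker Slc17a7 (242 CPM), and the lowest for Tac1 (19.1 CPM). The summed level of all 10 cortical and hippocampal excitatory markers ranged from 135 to 828 CPM in this group and from 168 to 431 CPM under the mutant label. The Vip difference averaged over treatments was -0.34 (adjusted p = 0.136) without that library and no longer passed. It also failed to pass without VPA vehicle wildtype-label replicate 2 (-0.49, adjusted p = 0.117), without the 4 libraries low in Th and the 2 high in Tph2 (-0.33, adjusted p = 0.155), in limma voom (-0.44, adjusted p = 0.111) and with the mean of Hcrt and Pmch as a covariate (-0.45, adjusted p = 0.146). It passed in DESeq2 (-0.57, adjusted p = 0.00617) and without the 13 libraries whose clock output went against their label (-0.56, adjusted p = 0.0375).

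**Figure D2:**
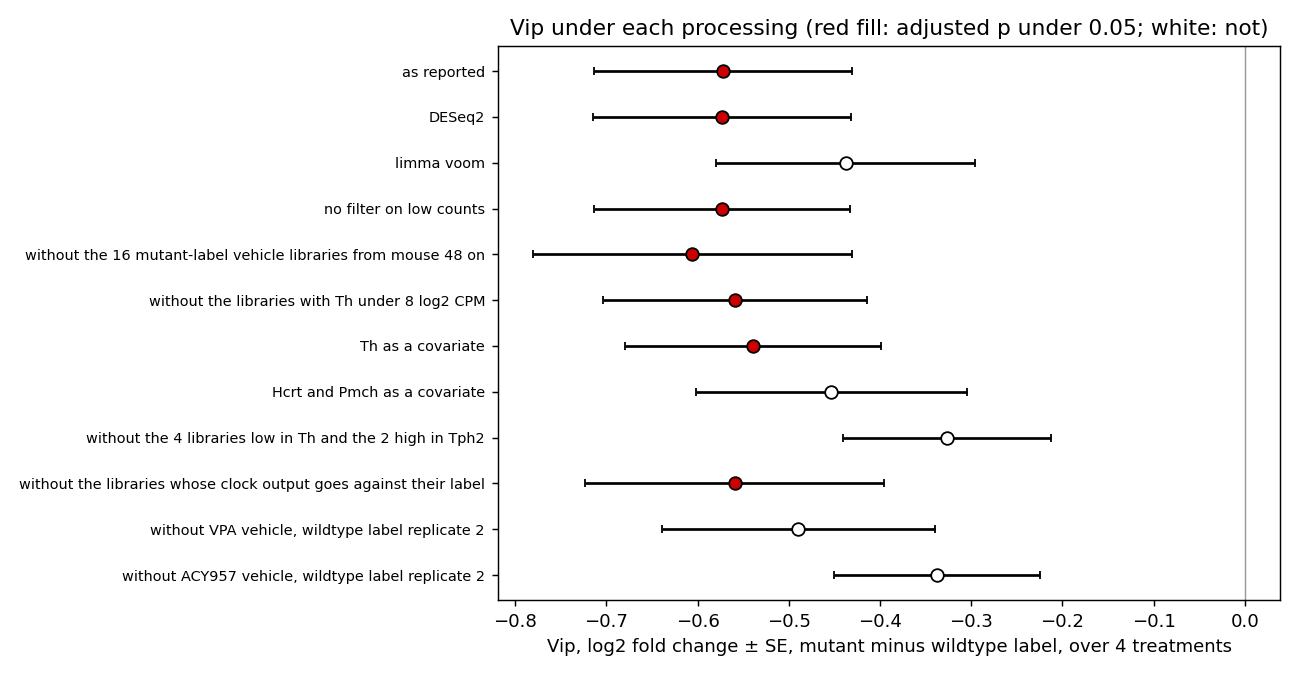
Log2 fold change of Vip (mutant minus wildtype label, over the 4 treatments) with its SE under each processing and without each single library whose removal ended the call. The estimate is negative in each of the fits drawn, from -0.61 to -0.33, and those with white points have an adjusted p of 0.111 or more.

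Within a treatment no gene of the 10 passed for the genotype label. The share of all genes called was 1% in VPA mice, 0% in ACY957 mice (757 genes had an unadjusted p under 0.05, DESeq2 called 5 and limma voom 0), 0.0064% in VPA vehicle mice and 0.0128% in ACY957 vehicle mice. In VPA mice Nts was higher by 0.63 (SE 0.28, adjusted p = 0.264), Grp was lower (-0.68, SE 0.31, adjusted p = 0.275) and Vip was lower (-0.55, SE 0.27, adjusted p = 0.296), none past the threshold. In that contrast all 22 dopamine neuron markers had negative fold changes (median -0.55, 0 called), and the hypothalamic peptide genes Hcrt (4.14, SE 0.62) and Pmch (4.10, SE 0.59) rose. Median Hcrt was 0.95 CPM under the mutant label and 0.48 CPM under the wildtype label, and median Pmch 19.7 and 5.22 CPM. Mutant-label replicates 2 and 8, both low in Th, held 18.7 and 42.2 CPM of Hcrt and 349 and 542 CPM of Pmch. Nts was at 37.9 and 46.7 CPM in the same 2 libraries. The part of these markers in the values of Nts and Grp was not tested beyond the covariate fits, in which the sign of Nts turned (-0.18 with Hcrt and Pmch). In bulk tissue, fewer cells of a type and less RNA per cell cannot be told apart.

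Nts values show how wide that group was. Under the mutant label the 8 VPA libraries ran from 8.54 to 46.7 CPM with a median of 22.3 CPM, and under the wildtype label from 5.83 to 27.1 CPM with a median of 16 CPM. The mutant-label libraries split evenly: 4 lay above the highest wildtype-label library and 4 below the wildtype-label median. Over the 4 treatments Nts was higher by 0.38 (SE 0.16, adjusted p = 0.245) under the mutant label and did not pass.

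In ACY957 mice and their vehicle mice the receptor Cckbr had the lower value under the mutant label. It was at 10.5, 13.8 and 22.3 CPM (lowest, median and highest of 8) under the wildtype label with ACY957 and 7.95, 11 and 14.4 CPM under the mutant label (-0.39 on the log2 scale, SE 0.19, adjusted p = 1.00). In vehicle mice the wildtype-label libraries were at 11.2, 15.3, 15.8, 16.2 and 22.2 CPM and the mutant-label libraries at 7.6 to 19.9 CPM with a median of 9.67 CPM (-0.54, SE 0.20, adjusted p = 0.999). There 8 of 11 mutant-label libraries lay below the lowest wildtype-label library, yet the difference did not pass. In the same mice Vip (-1.22, SE 0.27, adjusted p = 0.101) and Sst (-0.84, SE 0.33, adjusted p = 0.999) were lower without passing, and without replicate 2 of the wildtype label the values were -0.28 for Vip and -0.09 for Sst. The Vip difference passed when any of 4 other libraries was left out, with an adjusted p down to 0.0133.

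**Figure D3:**
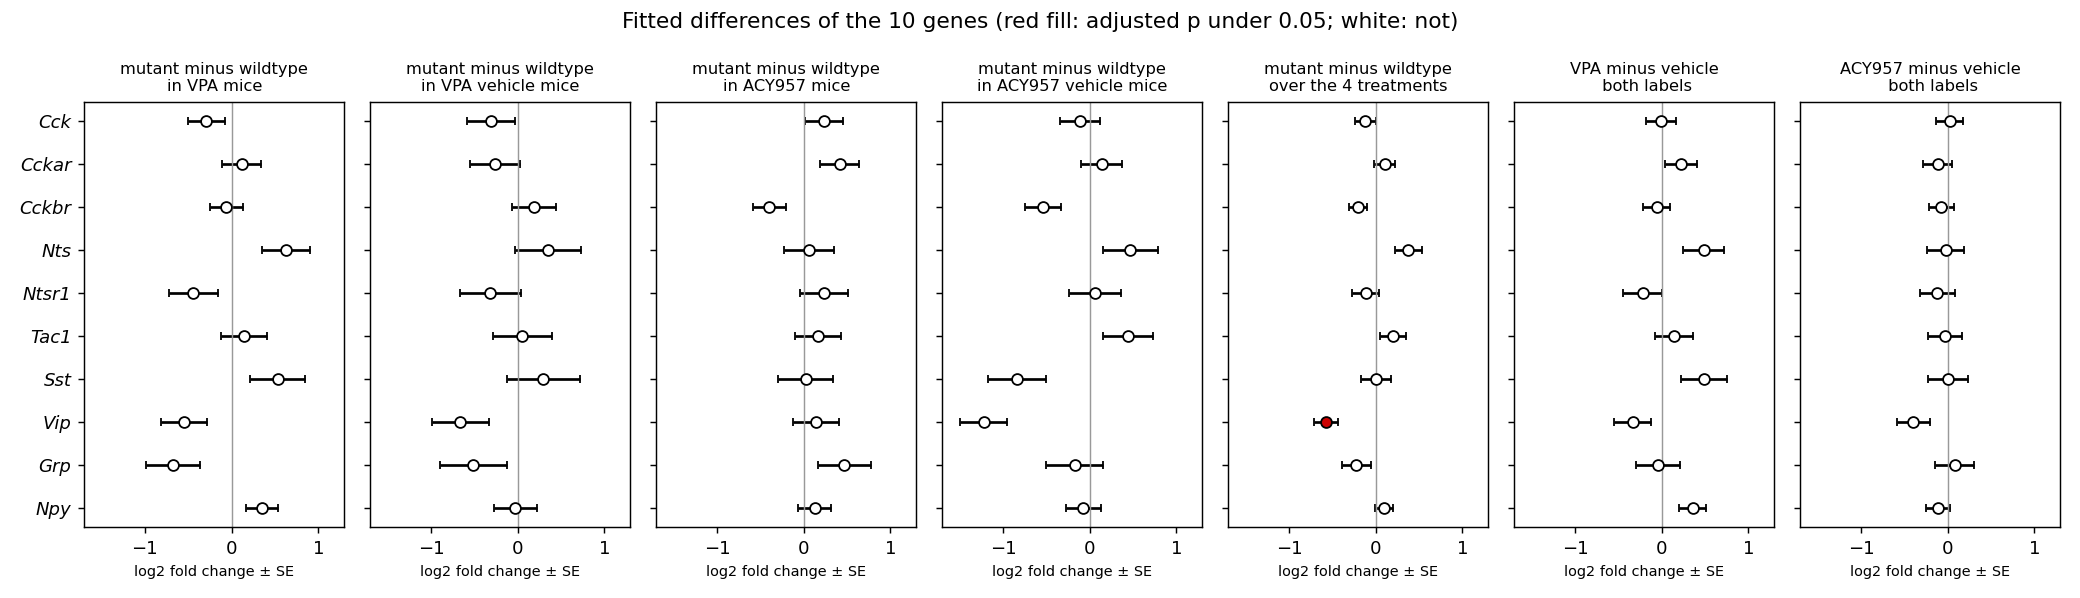
Log2 fold changes with their SE of the 10 genes for the genotype label at each treatment and averaged, and for each drug against its vehicle over both labels. Vip in the average over treatments (-0.57) is the single filled point, the only one drawn with an adjusted p under 0.05.

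VPA left none of the 10 genes past the threshold against its vehicle. The share of all genes called was 0.0256% under the wildtype label (8 against 3 libraries), 0.0576% under the mutant label (8 against 13) and 0.0704% over both labels. Under the mutant label the largest differences were in Nts (0.62, SE 0.25, adjusted p = 0.278), Sst (0.60, SE 0.28, adjusted p = 0.354), Npy (0.55, SE 0.17, adjusted p = 0.144) and Cckar (0.41, SE 0.20, adjusted p = 0.379). Npy, which encodes an inhibitory peptide, was at 3.76 to 10.1 CPM (median 5.96 CPM) with VPA and at 2.40 to 5.96 CPM (median 4.34 CPM) with vehicle, and 7 of 8 VPA libraries lay above the vehicle median. With Hcrt and Pmch as a covariate Nts was at -0.23 and Sst at -0.14, both with the sign turned. In this comparison Hcrt (4.36, SE 0.53, adjusted p = 1.16e-07) and Pmch (4.22, SE 0.49, adjusted p = 7.77e-08) rose, unevenly between libraries. Median Hcrt was 0.95 CPM with VPA and 0.45 CPM with vehicle, and median Pmch 19.7 and 6.48 CPM. VPA mutant-label replicates 2 and 8, both low in Th, held 18.7 and 42.2 CPM of Hcrt and 349 and 542 CPM of Pmch. Negative values, with 0 called, were found for 21 of 22 dopamine neuron markers (median -0.30) and 10 of 10 oligodendrocyte markers (median -0.23). The part of all these markers beyond the covariate fits was not tested. Cck was near 0 against its vehicle: 0.00 (SE 0.19) under the mutant label, -0.02 (SE 0.29) under the wildtype label and -0.01 (SE 0.18) over both, a ratio of 0.995 with an interval of 2 SE from 0.78 to 1.27. Over both labels Npy (0.36, SE 0.16, adjusted p = 0.407) and Nts (0.49, SE 0.24, adjusted p = 0.464) were higher without passing. The effect of VPA was not shown to differ between labels for any of the 10 (0.0064% of all genes called, Cck 0.02, SE 0.35). The signs of these 4 Cck values turned when some single libraries were left out. Without VPA vehicle wildtype-label replicate 3 Cck was at 0.31 under the wildtype label, 0.15 over both and -0.31 for the difference between labels.

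ACY957 likewise left none of the 10 past the threshold. The share of all genes called was 0.0064% under the wildtype label, 0.0064% under the mutant label and 0.0256% over both labels. Cck had log2 fold changes of -0.15 (SE 0.24) under the wildtype label, 0.20 (SE 0.20) under the mutant label and 0.02 (SE 0.16) over both, the last a ratio of 1.02 with an interval of 2 SE from 0.815 to 1.27. The value under the wildtype label was 0.15 without vehicle replicate 2, and the value over both labels ran from -0.07 to 0.17 when single libraries were left out. Under the mutant label it was 0.09 without ACY957 replicate 3 and -0.03 without the libraries whose clock output went against their label. Vip was lower under the wildtype label (-1.08, SE 0.29, adjusted p = 0.999), with 8 ACY957 libraries at a median of 5.09 CPM against 5 vehicle libraries at a median of 6.79 CPM. That value was -0.14 without replicate 2 of the vehicle. The difference of the ACY957 effect between labels was 1.37 for Vip (SE 0.38, adjusted p = 1.00) and 0.43 without that library, and 0.35 for Cck (SE 0.32) and 0.04 without it. Of all genes 0% were called for it (287 had an unadjusted p under 0.05, and DESeq2 and limma voom called 0 each). Over both labels the Vip value was -0.40 (SE 0.19, adjusted p = 0.578) and 0.07 without that library.

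The 2 vehicles were compared as well, since each serves as a control. Under the wildtype label 0% of all genes were called (705 had an unadjusted p under 0.05, and DESeq2 and limma voom called 0 each) and Cck was at -0.07 (SE 0.32), a value that ran from -0.39 to 0.24 when single libraries were left out. Under the mutant label 3.66% of all genes were called, and none of the 10. Of the mutant-label vehicle libraries, 16 came from mice numbered 48 or higher. Without them 7 of 15551 genes were called between the vehicles, against 572 of 15634 in the full fit. That fit rests on fewer libraries. Averaged over treatments, the genotype label then had 611 genes called, against 252. What sets these 16 libraries apart was not tested. In the full fit Cckbr was higher with VPA vehicle under the mutant label (0.50, SE 0.16, adjusted p = 0.0592). There 12 of 13 libraries lay above the ACY957 vehicle median of 9.67 CPM, and Cckar was lower (-0.51, SE 0.18, adjusted p = 0.0935). Both receptors of cholecystokinin thus had opposite signs, and Cck itself was at -0.27 (SE 0.18, adjusted p = 0.396). In this comparison 21 of 22 dopamine neuron markers had negative values (median -0.34) and Lmx1a was called (-0.46, adjusted p = 0.0398), while 9 of 10 oligodendrocyte markers had positive values (median 0.25, 0 called) and the mural gene Rgs5 was called (0.32, adjusted p = 0.0352). The part of these markers in the values of Cckbr, Cckar and Cck was not tested beyond the covariate fits. Cckbr passed in DESeq2 (0.50, adjusted p = 0.0314), without the libraries low in Th (0.52, adjusted p = 0.045) and with Hcrt and Pmch as a covariate (0.50, adjusted p = 0.0469). It was 0.31 (adjusted p = 0.364) without the libraries whose clock output went against their label, and Cckar was then -0.38 (adjusted p = 0.332). The drug and vehicle comparisons share their vehicle libraries, and the genotype comparisons share all of theirs with the drug comparisons.

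Other genes of peptide signalling came from 3 lists. Of 28 other peptide precursors 21 were tested. In VPA mice 2 rose under the mutant label, Tac2 (2.09, SE 0.56, adjusted p = 0.0462), the neurokinin B precursor, and Pnoc (0.67, SE 0.18, adjusted p = 0.0415), the nociceptin precursor. Nmu, the precursor of neuromedin U, rose with ACY957 from 0.54 to 5.76 CPM under the wildtype label (3.42, SE 0.56, adjusted p = 0.00142) and from 1.15 to 8.41 CPM under the mutant label (2.88, SE 0.38, adjusted p = 4.82e-06). Tac2 rose with VPA under the mutant label (2.72, SE 0.49, adjusted p = 0.00406), and no other gene of this list passed in a drug comparison. Tac2 averaged 9.17 CPM in the 8 VPA libraries, with an SD of 11.4, and 1.40 CPM in the 13 vehicle libraries, with an SD of 0.850. Hcrt and Pmch rose in both comparisons in which Tac2 passed. With their mean as a covariate 0 of 15634 genes were called for VPA under the mutant label, so Tac2 did not pass there. For the label in VPA mice 7 genes were called in that fit, against 157 without the covariate. Whether Tac2 was among those 7 is not reported here, and the part of Hcrt and Pmch in Tac2 was not tested further. Of a list of 20 other peptide receptor genes 17 were tested. The 1 that passed in any comparison, Adcyap1r1, was lower with VPA vehicle than with ACY957 vehicle under the mutant label (-0.18, SE 0.06, adjusted p = 0.0474). Of 19 genes of peptide processing and secretory granules, all tested, Ptprn2 (-0.27, adjusted p = 0.00720), Ptprn (-0.25, adjusted p = 0.0134) and Pcsk2 (-0.16, adjusted p = 0.0347) were lower in that same comparison. Mme, which encodes the peptide-degrading enzyme neprilysin, fell under the mutant label averaged over treatments (-0.29, SE 0.08, adjusted p = 0.0411). The median log2 fold change of the 21 precursors in that average was 0.07, against 0.00 over all genes. Of all genes, 1% were called for the label in VPA mice, 1.61% for the label averaged over treatments and 3.66% between the mutant-label vehicles. For ACY957 the share was 0.0064% under each label, and for VPA under the mutant label it was 0.0576%.

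Across the 64 libraries the genes fell on either side of Th, the rate-limiting enzyme of dopamine synthesis. Pearson's r of log2 CPM with Th was 0.90 for Ntsr1, 0.81 for Grp and 0.68 for Cck, and -0.69 for Nts, -0.55 for Sst and -0.43 for Tac1. Spearman's rho was 0.95, 0.88, 0.80, -0.70, -0.43 and -0.53 for these. Permutation p-values of r were two-sided, with 100000 resamples, and adjusted over 20 relations. They were 2.86e-05 for Ntsr1, Grp, Cck and Nts, where the raw p of 1e-05 is the smallest they can give, 5e-05 for Sst and 0.00172 for Tac1. Without the 2 libraries farthest from the median of Th, r was 0.95 for Ntsr1, 0.84 for Grp, 0.71 for Cck, -0.61 for Nts, -0.44 for Sst and -0.47 for Tac1. After subtraction of group means r was 0.88, 0.80, 0.66, -0.67, -0.53 and -0.48. Vip had r = 0.31 with Th (adjusted p = 0.0307) and rho = 0.26 (adjusted p = 0.0456) by the same permutation test. Its r rested on a few libraries: it was 0.17 without the 2 farthest and 0.12 without the 4 low in Th.

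With the mean of Hcrt and Pmch, genes of lateral hypothalamic neurons, the signs were opposite except for Cckar and Cckbr. Cckar had positive r with Th (0.07) and with Hcrt and Pmch (0.20), and Cckbr negative r with both (-0.22 and -0.08). By the permutation test on rho, Cckbr was at -0.40 with Th (adjusted p = 0.00194). Cckar was at 0.28 with Th (adjusted p = 0.0316) and 0.25 with Hcrt and Pmch (adjusted p = 0.0465). Nts (r = 0.68, rho = 0.67, adjusted p = 2.86e-05), Sst (r = 0.53, rho = 0.45, adjusted p = 0.000111), Tac1 (r = 0.46, rho = 0.71, adjusted p = 0.00085) and Npy (r = 0.45, rho = 0.49, adjusted p = 0.000255) were positive in this permutation test. Ntsr1 (r = -0.70, rho = -0.58), Grp (r = -0.54, rho = -0.41), Cck (r = -0.49, rho = -0.41) and Vip (r = -0.36, rho = -0.27) were negative. Without the 2 farthest libraries r was 0.61 for Nts, 0.41 for Sst, 0.53 for Tac1, 0.42 for Npy, -0.64 for Ntsr1, -0.42 for Grp, -0.40 for Cck and -0.26 for Vip. Libraries share a punch position and a depth across all genes, and what sets these relations was not tested.

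**Figure D4:**
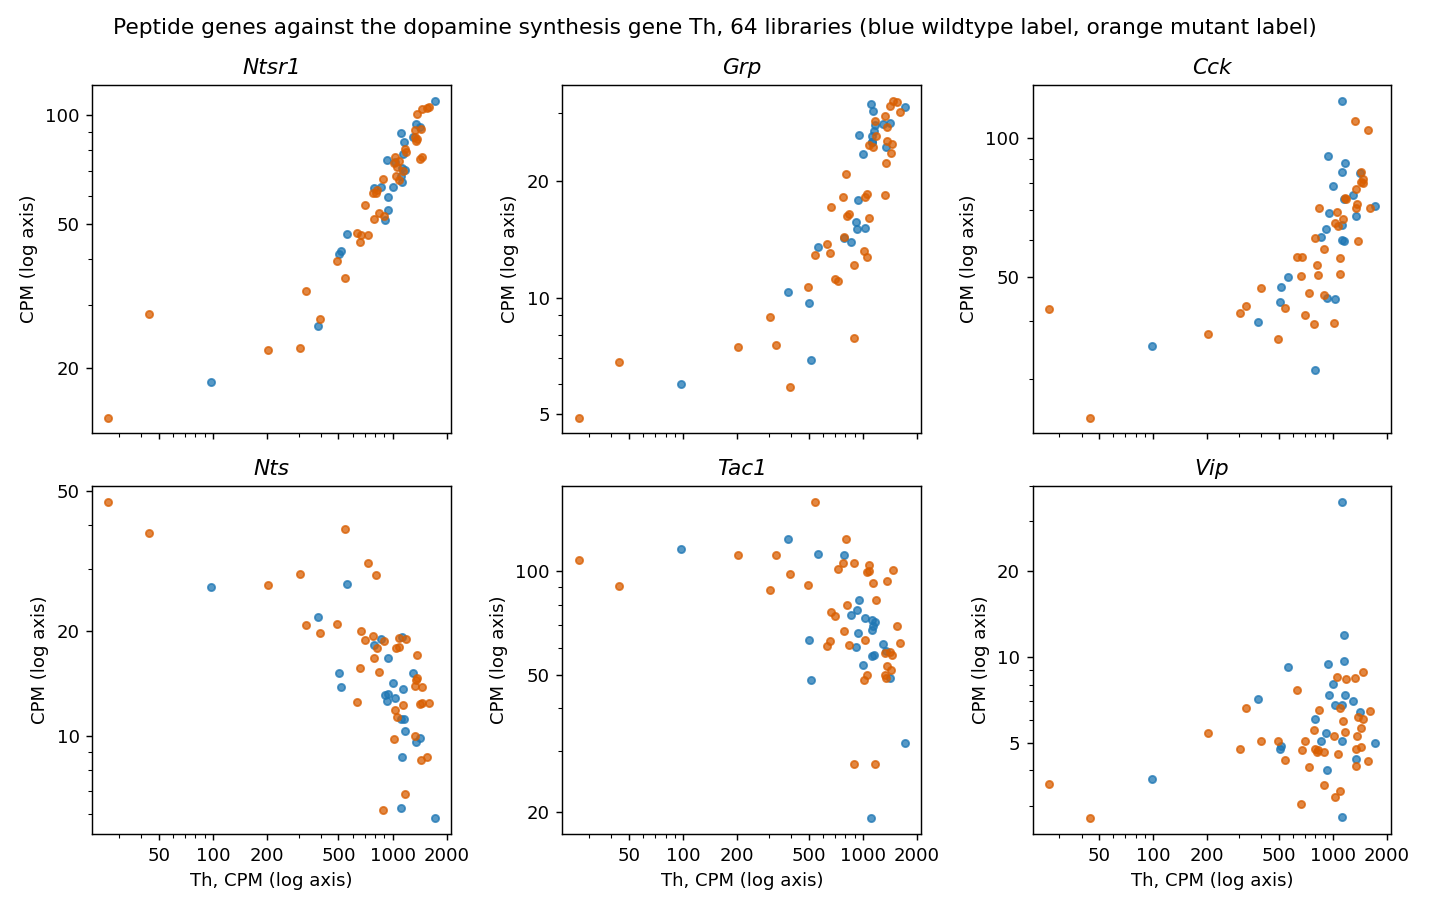
CPM of 6 genes against Th, both on log axes, in 64 libraries (blue wildtype label, orange mutant label). Ntsr1, Grp and Cck climb with Th, Nts and Tac1 decline, and the 4 libraries at the left have Th from 26.3 to 202 CPM.

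The 4 libraries lowest in Th lay toward one end of this pattern. Ntsr1 was at 14.6, 18.3, 22.5 and 28.2 CPM in them, while the 58 libraries that did not stand apart had a median of 67.3 CPM. Grp was at 4.90 to 7.47 CPM against a median of 18.2 CPM, and Cck at 24.7 to 42.6 CPM against 60.9 CPM. Nts, in contrast, was at 26.6 to 46.7 CPM against a median of 14.6 CPM and Sst at 61.9 to 78.7 CPM against 27.3 CPM. The 58 libraries overlapped with these 4: they reached down to 22.8 CPM for Ntsr1, 5.88 for Grp and 31.4 for Cck. They reached up to 38.9 CPM for Nts and 79.2 CPM for Sst. Without the 4 libraries r with Th was 0.96 for Ntsr1, 0.85 for Grp, 0.70 for Cck, -0.60 for Nts, -0.32 for Sst and -0.43 for Tac1.

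Between the genes themselves, 25 of 45 pairs had an adjusted permutation p under 0.05, 13 with positive and 12 with negative r. The p-values of pairs are those of r. The same count was not made for pairs of other genes, so the 25 cannot be read as particular to this set. The ligand Nts and its receptor Ntsr1 ran in opposite directions (r = -0.71, rho = -0.70, adjusted p = 4.09e-05), and so did the receptors Cckar and Cckbr (r = -0.60, rho = -0.55, adjusted p = 4.09e-05). Nts and Tac1 rose and fell together (r = 0.83, rho = 0.81, adjusted p = 4.09e-05), as did Ntsr1 and Grp (r = 0.85, rho = 0.81), Cck and Grp (r = 0.79, rho = 0.81) and Sst and Npy (r = 0.53, rho = 0.50). Without the 2 libraries farthest on the first gene r was -0.66 for Nts and Ntsr1, -0.50 for Cckar and Cckbr, 0.82 for Nts and Tac1, 0.82 for Ntsr1 and Grp, 0.77 for Cck and Grp and 0.47 for Sst and Npy. Between Cck and Cckbr r was -0.14 and did not pass.

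**Figure D5:**
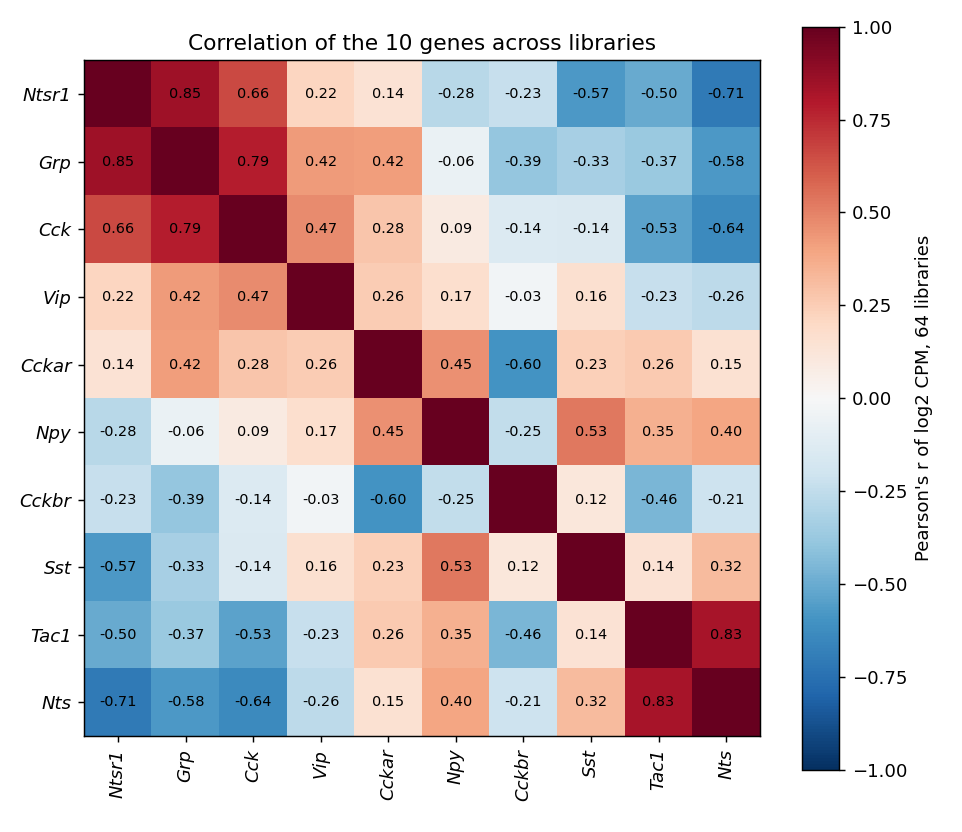
Pearson's r of log2 CPM between each pair of the 10 genes over 64 libraries, red for positive and blue for negative. Ntsr1, Grp and Cck form a positive block (r from 0.66 to 0.85) that is negative with Tac1 and Nts.

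Genes whose pattern was most like each gene, taken from the 5 with the highest Pearson's r over the 64 libraries, gave a similar picture. For Ntsr1 they were Drd2 (r = 0.97), the dopamine D2 receptor, Ntn1, Fam167a, Cadps2 and March4. For Cck they were Lpl (r = 0.84), Grp, Ano2, S100a10 and Gkn1, and for Grp Lpl (r = 0.93), Ano2, Tacr3 and Syt17. For Nts they were Mb21d2 (r = 0.86), Cbln2, Gpr101 and Cd83, and for Tac1 Adcyap1 (r = 0.86), which encodes the peptide PACAP, Barhl1, Gpx3 and Nts. Cckbr was most like Vamp1 (r = 0.88), a synaptic vesicle protein, Galnt9, Hapln4, Phospho1 and Npas1. The best matches were looser for Cckar (Ppapdc1a, r = 0.75), Sst (Pax7, r = 0.69), Npy (Nat14, r = 0.66) and Vip (Chn1, r = 0.61).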

How the data were processed

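Gene counts of poly(A) RNA from 64 VTA punches (stranded TruSeq libraries, NextSeq 500, 75 base reads, per the labels' protocols and the design text) were used as deposited by the authors. For alignment to mm10 the design text gives TopHat2 2.0.9 and the submitters' processing notes give HISAT2, so the aligner is not settled. Genes were counted with HTSeq 0.6.1, per the design text. One model of 8 group means was fitted with edgeR 4.0.16 (TMM, filterByExpr, quasi-likelihood F test, R 4.3.3), and p-values were adjusted by Benjamini-Hochberg over 15634 genes, with 0.05 as threshold, in 15 comparisons. CPM are scaled by TMM library sizes, and log2 CPM use a prior count of 2. Alternatives used DESeq2 1.42.0 and limma voom 3.58.1, no filter, the compared groups alone, pooled vehicles, covariates, and libraries left out. The edgeR script was tested on simulated counts. A gene was named in a comparison if it passed or had an unadjusted p under 0.05, Cck always, and passing genes of the 3 peptide lists were named. The genes, lists and comparisons were chosen with earlier results of these data known. The labels give no batch and no replicate numbers. Each library has its own mouse number, and p-values measure the spread between these libraries. Some of the genes most like a member are not reported here.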

Additional observations from a re-analysis of the deposited data

Results flagged for a closer look

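In 50 sets of 4 to 10 libraries (a gene in a group), 3 had a highest or lowest library far from the rest by Dixon's criterion, and chance gives about 1 in 20. Ntsr1 was at 18.3 CPM in VPA wildtype-label replicate 3, the library of that group lowest in Th, while the others were at 47 to 110 CPM. Vip was at 35.2 CPM in ACY957 vehicle wildtype-label replicate 2, while the others were at 4.39 to 8.01 CPM. Tac1 was at 124 CPM in ACY957 wildtype-label replicate 6, while the others were at 48.2 to 74.9 CPM.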

How the results depend on the processing

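The number of the 10 genes called was 0 in 14 comparisons and 1 (Vip) in the genotype label averaged over treatments. That 1 became 0 in limma voom, with Hcrt and Pmch as a covariate and, an alternative chosen after seeing the data, without the 4 libraries low in Th and the 2 high in Tph2, and leaving out single libraries gave 0 to 1. For the vehicles under the mutant label the count became 1 (Cckbr) in DESeq2, when the libraries low in Th were left out and with Hcrt and Pmch as a covariate, and leaving out single libraries gave 0 to 1. It was also 0 to 1 for the genotype label in ACY957 vehicle mice. In the other 12 comparisons it was 0 in each alternative.

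No called value changed sign. With Hcrt and Pmch as a covariate Cck was 0.0841 in VPA mice and 0.031 over the 4 treatments, Nts was -0.18 for the label in VPA mice, -0.23 for VPA under the mutant label and -0.10 for VPA over both labels, and Sst was -0.14 for VPA under the mutant label. With Th as a covariate Cck was 0.0277 in VPA mice. Where the Cck value was small, leaving out single libraries often turned its sign: it ran from -0.52 to 0.0155 for the label in VPA vehicle mice and -0.30 to 0.19 in ACY957 vehicle mice, from -0.23 to 0.31 for VPA under the wildtype label, -0.11 to 0.11 under the mutant label, -0.11 to 0.15 over both and -0.31 to 0.23 for its difference between labels, from -0.33 to 0.15 for ACY957 under the wildtype label and -0.07 to 0.17 over both, and from -0.39 to 0.24 for the wildtype-label vehicles. Other settings turned the sign of Cck in most of these too. Vip with ACY957 over both labels ran from -0.50 to 0.0719 when single libraries were left out and was 0.0737 without the 6 libraries that stood apart. The cause was not tested. Leaving out the 13 libraries whose clock output went against their label, also chosen after seeing the data, changed no call. No paired analysis was possible because the labels carry no replicate numbers. Depth limits Cckar most, at 21 to 139 counts per library.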
